A study of Mus musculus with 5 samples.

Results

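The 8 genes described here carry lipid between brain cells or sense it: Apoe, Trem2, Tyrobp, Lpl, Clu, Abca1, Abca7 and Abcg1. They were chosen by symbol, from 32285 gene rows, and each symbol names 1 row in every library. The study profiled nuclei of mouse hippocampus, with RNA and open chromatin read from the same nucleus. Each of 5 groups has 1 library: wild type mice, 5xFAD mice, and 5xFAD mice labelled as lacking MAGL in astrocytes, in neurons or globally (astrocyte MAGL-KO, neuron MAGL-KO and global MAGL-KO). 5xFAD mice carry mutant human transgenes driven by the neuronal Thy1 promoter and deposit amyloid. MAGL, encoded by Mgll, is the lipase that breaks down the endocannabinoid 2-arachidonoylglycerol. All groups but the wild type carry 5xFAD, so no library shows a MAGL deletion without amyloid. Age, the number of mice per library, the driver of each deletion and the deleted exons are not given in the sources used here. Xist and Y-linked UMIs (unique molecular identifiers, counts of RNA molecules) were found in separate nuclei of all 5 libraries, so both sexes were pooled.

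Apolipoprotein E is the main protein of the brain's lipoprotein particles and is secreted mostly by astrocytes, which load it with cholesterol. Abca1 and Abcg1 pump cholesterol out of the cell onto such particles under control of the liver X receptors, and clusterin (Clu) is a second secreted lipoprotein component. On microglia, Trem2 binds lipids, apolipoproteins and amyloid and signals through the adaptor Tyrobp. Microglia that gather at amyloid plaques are known for raised Apoe, Trem2, Tyrobp and Lpl, the last encoding lipoprotein lipase, which frees fatty acids from triglyceride. Abca7 is a lipid transporter related to Abca1, and the genes APOE, TREM2, CLU and ABCA7 have variants tied to Alzheimer's disease risk in humans.

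Promoter sequences in RefSeq (GRCm38) were at hand for 4 of the 8 genes, and 3 are shown, those of genes with enough microglial UMIs to compare. The chromatin data list a peak at the Apoe and Abca1 starts in all 5 libraries and at the Trem2 start in 3. The fourth, Abca7, also has a peak in all 5 and is not shown, since it had 0 to 4 UMIs in microglia. Each line gives the 250 bases before the start site, 5′ to 3′ on the gene's strand. Capitals mark matches, on either strand, to the letters searched: GAGGAA (the ETS core that PU.1 binds), CACGTG (an E-box), AGGTCA (a nuclear receptor half-site), TATAAA (a core promoter element), GGGCGG (which Sp1 binds) and TGANTCA, whose N may be any base. With C or G there it is the site AP-1 is known to bind, and the Trem2 window has A.
Apoe, chr7:19699189-19699438, minus strand: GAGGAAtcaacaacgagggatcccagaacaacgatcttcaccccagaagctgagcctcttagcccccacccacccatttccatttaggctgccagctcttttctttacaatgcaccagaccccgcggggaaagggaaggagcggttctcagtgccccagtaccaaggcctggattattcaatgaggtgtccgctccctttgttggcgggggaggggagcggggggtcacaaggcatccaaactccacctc
Trem2, chr17:48346151-48346400, plus strand: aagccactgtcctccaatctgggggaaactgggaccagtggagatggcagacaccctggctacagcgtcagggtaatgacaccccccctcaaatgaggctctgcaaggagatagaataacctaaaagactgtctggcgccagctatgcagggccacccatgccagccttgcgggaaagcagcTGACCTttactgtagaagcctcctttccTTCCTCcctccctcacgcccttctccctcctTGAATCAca
Abca1, chr4:53159896-53160145, minus strand: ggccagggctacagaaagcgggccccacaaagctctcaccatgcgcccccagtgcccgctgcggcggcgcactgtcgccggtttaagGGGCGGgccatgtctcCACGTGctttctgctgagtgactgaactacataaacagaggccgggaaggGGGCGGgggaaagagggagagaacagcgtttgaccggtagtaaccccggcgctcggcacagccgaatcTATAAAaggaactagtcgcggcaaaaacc

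The Apoe window held 1 match, GAGGAA at its far end, 250 to 245 bases before the start. In the Trem2 window TTCCTC, which is GAGGAA on the other strand, lay 40 to 35 bases before the start. TGACCT, which is AGGTCA on the other strand, lay 68 to 63 bases before it, and TGAATCA, a match to TGANTCA, lay 9 to 3 bases before it. The Abca1 window held a TATAAA 29 to 24 bases before the start, an E-box 147 to 142 bases before it, and GGGCGG 97 to 92 and 163 to 158 bases before it. Such matches are common: of 32851 promoter windows of 250 bases, 23.3% held GAGGAA, 14% AGGTCA, 6.75% TGANTCA, 12.4% TATAAA, 6.02% CACGTG and 32.7% GGGCGG.

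The genes lie at chr7:19696109-19699188 (Apoe), chr17:48346401-48354147 (Trem2), chr7:30413760-30417585 (Tyrobp), chr8:68880491-68907448 (Lpl), chr14:65968483-65981547 (Clu), chr4:53030787-53159895 (Abca1), chr10:79996494-80015572 (Abca7) and chr17:31057675-31117988 (Abcg1) on GRCm38. Abcg1 overlaps the small gene model Gm25447 on the same strand, and no other annotated gene overlaps the other 7.

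The files held 4050 to 7498 nuclei per library, of which 3917 to 7032 were used, with medians of 14068.5 to 17353.5 UMIs per nucleus over the nuclei in the files. Pairs of libraries shared 29 to 63 cell barcodes. Clusters were named by marker genes, and 15.3% to 22.2% of the used nuclei stayed unnamed. Microglia were few: 44 nuclei in the wild type library, 82 in 5xFAD, 122 in the library labelled as astrocyte MAGL-KO, 50 in that labelled as neuron MAGL-KO and 93 in that labelled as global MAGL-KO. All 11 microglial markers had UMIs in the microglia of each library, and the macrophage markers Cd163, F13a1 and Pf4 were at 0 there in all 5. The summed level of the 6 macrophage markers was 70.8 to 126 CPM (counts-per-million of the UMIs of the class), from 1 to 3 of them. Nuclei with UMIs of at least 3 of these macrophage markers had been set aside first, so a low macrophage sum was partly fixed in advance. The microglial markers were those used for naming, so their presence was expected too. The summed level of the 6 T cell markers was 0 in microglia. Mgll did not separate the libraries as their labels would: in astrocytes it stood at 496, 356, 483, 403 and 430 CPM, in the order wild type, 5xFAD, and those labelled as astrocyte, neuron and global MAGL-KO. Mgll in excitatory neurons was 74.5, 75.4, 96.1, 99.1 and 85.8 CPM in the same order, which is kept throughout. UMIs outside a deleted part would not show a deletion, so the 3 MAGL-KO libraries are named by their labels.

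Levels below are CPM. With 1 library per group no test between groups was possible. Every interval is a 95% interval of counting error only, so differences between nuclei, mice or preparations are not in it. A difference is called when it is at least 1.5-fold, on levels with 5 CPM added, and rests on at least 30 UMIs over both libraries. The share of all genes tested that the same rule called is given as the background of these counts.

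Levels were set in order over 6 cell classes, and the first class of each gene was compared with the next on the same values. Each library is a different group, so every SD here holds differences between groups. Trem2 and Tyrobp were highest in microglia in all 5 libraries. Between 64.6% and 76.3% of all Trem2 UMIs of a library lay in its microglia, although microglia were 0.877% to 2.08% of nuclei. Trem2 was 6.82 ± 0.37 (SD, n = 5 libraries) log2 units higher in microglia than in oligodendrocyte precursors, the class ranked next. Tyrobp was 5.79 ± 0.77 log2 units (SD, n = 5) higher in microglia than in astrocytes. Precursors held only 1 to 5 Trem2 UMIs per library and astrocytes 0 to 2 Tyrobp UMIs. The size of both differences, and which class ranked next, thus rest on few UMIs and on the 5 CPM added. Clu was highest in astrocytes, 3.58 ± 0.52 log2 units (SD, n = 5) above precursors. Astrocytes held 4.5% to 13.9% of all Clu UMIs of a library, and the far more numerous excitatory neurons 30.5% to 40.4%, with 33% to 42.5% in unnamed nuclei. For these 3 genes the first class was above the second in 5 of 5 libraries, and the paired exact permutation test (two-sided, 8 genes) gave p = 0.0625, the smallest it can give, and an adjusted p of 0.1.

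Abca1 was highest in microglia, 0.91 ± 0.33 log2 units (SD, n = 5) above astrocytes. Abcg1 was highest in oligodendrocytes, 0.60 ± 0.53 log2 units (SD, n = 5) above microglia. Both orders held in 5 of 5 libraries with the same exact permutation p of 0.0625 and adjusted p of 0.1. Apoe had no first class shared by all libraries: astrocytes were above microglia in 3 of 5 libraries, with a mean difference of 0.62 ± 2.34 log2 units (SD, n = 5; exact permutation p = 0.8125, adjusted 0.812). Astrocytes were far above microglia in wild type and nearly level with them in the library labelled as global MAGL-KO. Microglia were above astrocytes in 5xFAD and in the library labelled as neuron MAGL-KO. Lpl was higher in microglia than in excitatory neurons in 4 of 5 libraries, by 3.12 ± 2.47 log2 units (SD, n = 5; exact permutation p = 0.125, adjusted 0.167). The exception was wild type, whose microglia had no Lpl UMI. Its floor of 29 CPM was above the excitatory level, so it cannot show which class was higher. For Abca7 the first classes did not differ beyond their spread (0.11 ± 0.64 log2 units between inhibitory neurons and precursors, SD, n = 5; exact permutation p = 0.6875, adjusted 0.786).

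**Figure D1:**
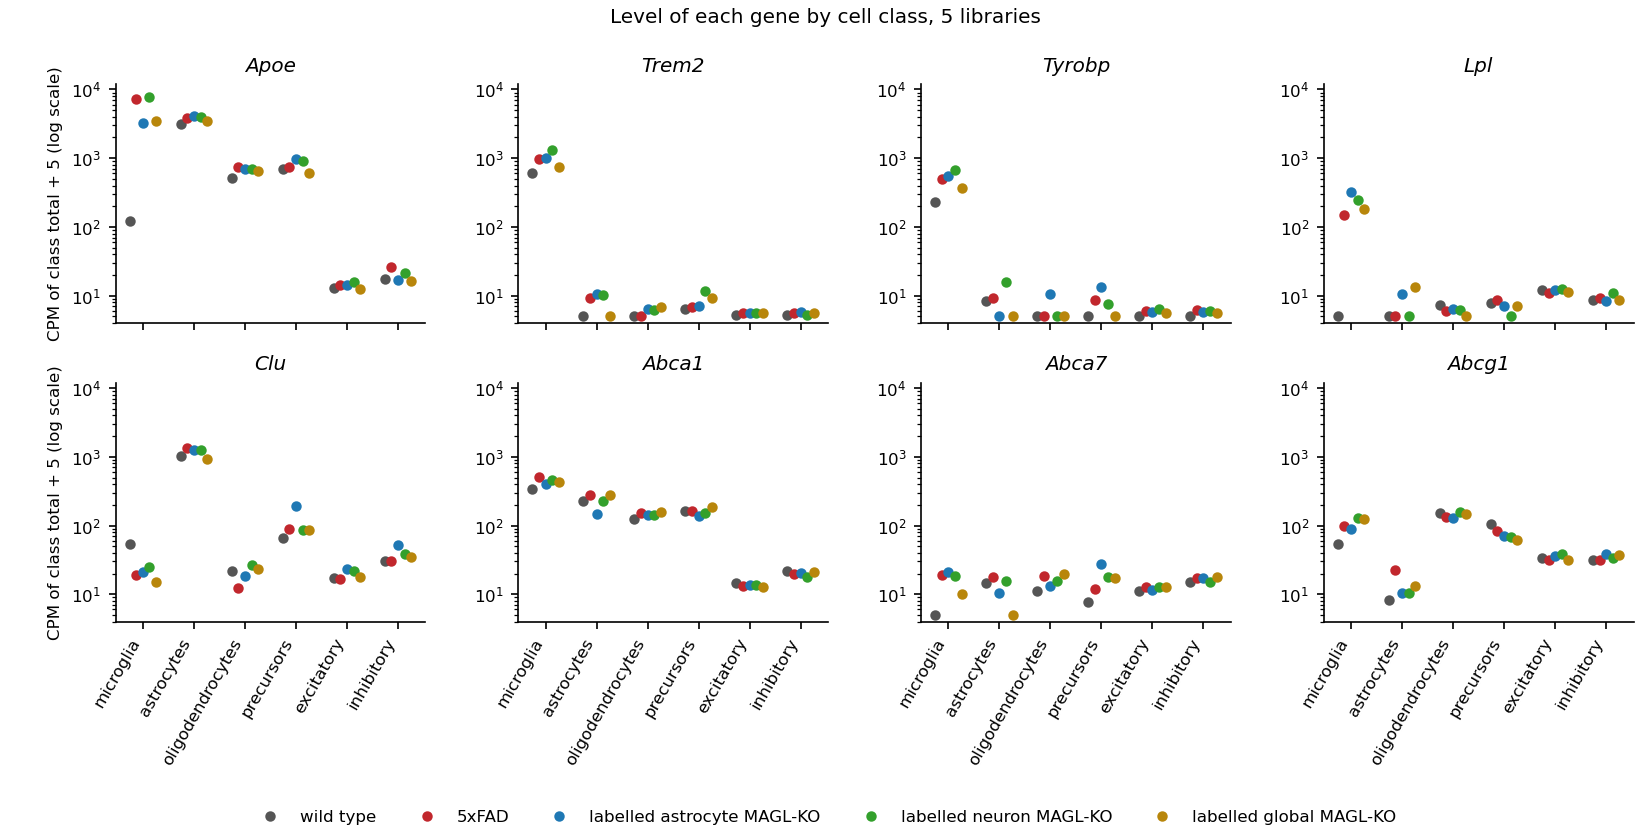
Level of the 8 genes in microglia, astrocytes, oligodendrocytes, oligodendrocyte precursors, excitatory and inhibitory neurons, as CPM of the class total plus 5 on a log axis, 1 point per library. Trem2 and Tyrobp stand high in microglia, Clu in astrocytes and Abcg1 in oligodendrocytes, and the wild type point of Apoe lies far below the other 4 in microglia.

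Apoe in microglia was far lower in the wild type library than in 5xFAD. Microglia held 12 Apoe UMIs (116 CPM) in the wild type library and 1526 (7200 CPM) in 5xFAD. They held 818 (3220 CPM), 1185 (7800 CPM) and 686 (3440 CPM) in the libraries labelled as astrocyte, neuron and global MAGL-KO. The wild type library was thus far below the others, 5xFAD and the library labelled as neuron MAGL-KO were the highest, and the other 2 lay between. The 5xFAD level was 62-fold that of wild type (interval 35.4 to 120). As a share of all Apoe UMIs in the library, microglia held 0.377% in wild type, 27.5% in 5xFAD, and 20.6%, 23.2% and 20.5% in the MAGL-KO-labelled libraries.

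Trem2, the lipid receptor, stood at 609, 981, 1010, 1300 and 731 CPM in microglia, on 63 to 257 UMIs. The 5xFAD level was 1.61-fold that of wild type (1.21 to 2.17). That call rests on a log2 ratio of 0.68, and in nuclei with Xist alone the ratio was 0.37, below the threshold. It was also below it after thinning every nucleus to 1000 UMIs (0.54) and under 3 other settings (0.54 to 0.57). Tyrobp, its signalling adaptor, stood at 222, 491, 551, 665 and 366 CPM, on 23 to 140 UMIs, with 5xFAD 2.21-fold above wild type (1.39 to 3.63). For both genes the wild type library was the lowest of the 5, that labelled as global MAGL-KO the next, and that labelled as neuron MAGL-KO the highest.

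Lpl had no UMI in the 44 wild type microglia, 31 (146 CPM) in 5xFAD, and 80 (315 CPM), 37 (244 CPM) and 35 (175 CPM) in the libraries labelled as astrocyte, neuron and global MAGL-KO. Set over the floor of 3 counts in the wild type library (29 CPM), the Lpl level was 5.03-fold that floor in 5xFAD. It was 10.9-fold, 8.41-fold and 6.03-fold that floor in the other 3. These ratios leave out counting error, and the upper limit of the wild type level was 35.7 CPM. The exporter Abca1 stood at 339, 505, 394, 461 and 426 CPM, and its 5xFAD level was 1.49-fold that of wild type (1.01 to 2.25), short of a call. In nuclei with Xist the log2 ratio of Abca1 was 0.08, and in nuclei with Y-linked UMIs it was 1.22. Abcg1 stood at 48.4, 94.4, 82.7, 125 and 120 CPM on 5 to 24 UMIs, too few to compare 5xFAD with wild type. Against 5xFAD its log2 ratios were -0.18, 0.39 and 0.33 in the libraries labelled as astrocyte, neuron and global MAGL-KO, none a call. Clu had 2 to 5 UMIs and Abca7 0 to 4 UMIs, too few to compare.

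Of the 8 genes, 5 had enough UMIs to be tested in microglia between 5xFAD and wild type, and 4 were called higher and 0 lower (Apoe, Trem2, Tyrobp and Lpl). Lpl passed the count minimum through 5xFAD alone, so its call is not counted as support, and without it 3 of 4 were called. Of all 2395 genes tested the same rule called 17.5% higher and 12.5% lower.

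Marker levels of other cells in microglia are given beside these differences. Summed microglial markers stood at 14200, 14200, 16000, 15800 and 14300 CPM. Of lists of other cells, dentate granule neuron markers had the highest sum in microglia in 5 of 5 libraries, at 1670, 816, 906, 823 and 1050 CPM, with Prox1 and Dock10 seen in each and Dsp and Plk5 at 0 in all. The same list summed to 3610 to 3900 CPM in oligodendrocytes, and general excitatory neuron markers to only 39.5 to 161 CPM in microglia. Summed astrocyte markers stood at 232, 326, 158, 250 and 285 CPM there, against 15900 to 16800 CPM in astrocytes. Summed oligodendrocyte markers were highest in wild type microglia, at 1230 CPM, and stood at 330, 118, 105 and 130 CPM in the others. The part of these in the differences was not tested. Apoe in 5xFAD astrocytes was 3780 CPM, below its level in 5xFAD microglia.

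**Figure D2:**
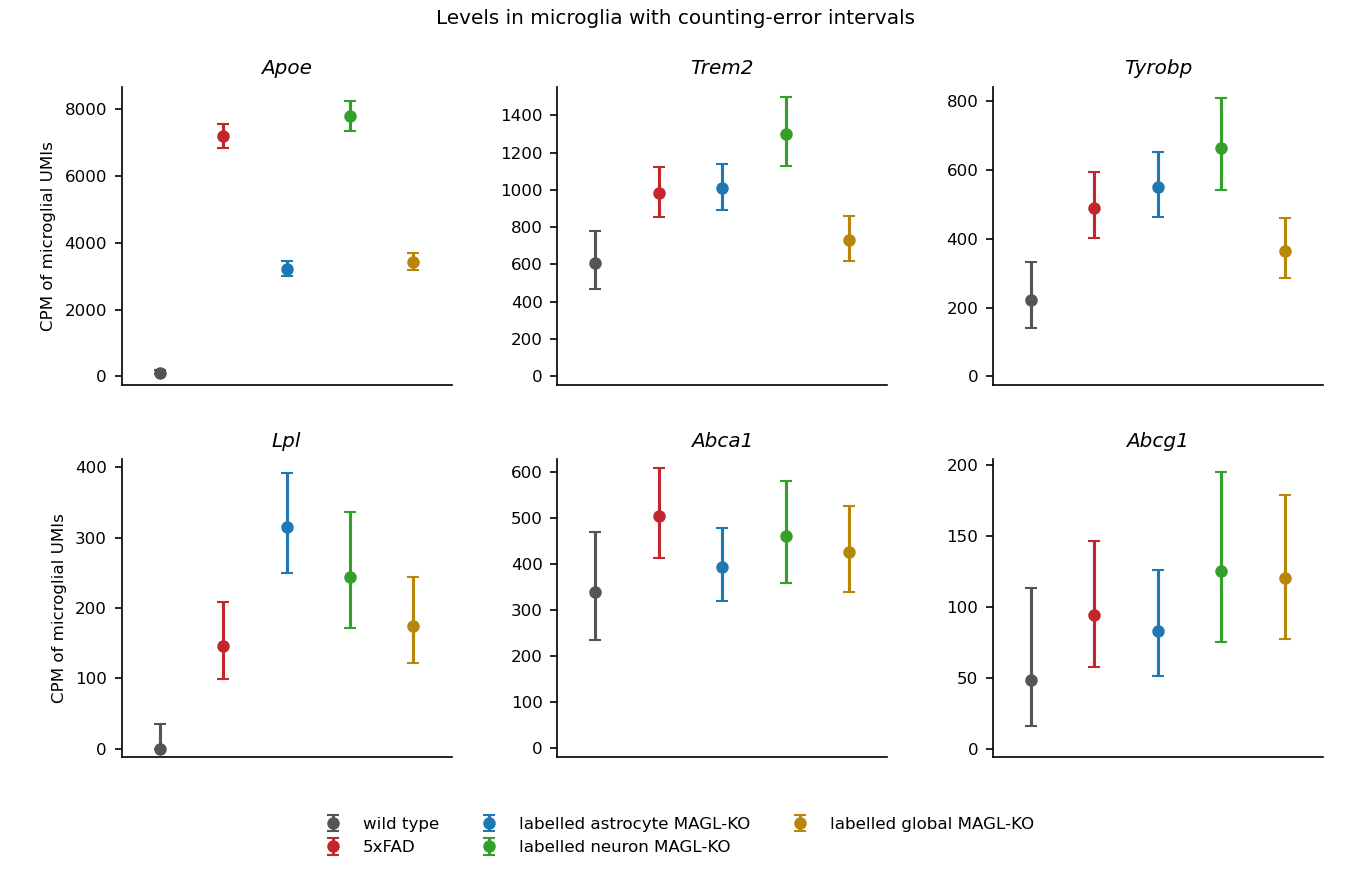
Levels of Apoe, Trem2, Tyrobp, Lpl, Abca1 and Abcg1 in microglia as CPM of microglial UMIs, 1 point per library with its 95% counting interval. For Apoe the wild type point is 116 CPM and the 5xFAD point 7200 CPM, and for Lpl the wild type point is 0.

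The Apoe difference was spread unevenly over nuclei. Apoe was undetected in 39 of 44 wild type microglia, in 20 of 82 in 5xFAD, and in 41 of 122, 6 of 50 and 28 of 93 in the libraries labelled as astrocyte, neuron and global MAGL-KO. The median nucleus held 0, 9, 3, 6.5 and 3 Apoe UMIs, and the highest held 6, 173, 43, 221 and 59. At least 10 Apoe UMIs were held by 0%, 46.3%, 27.9%, 44% and 31.2% of microglia.

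Shares of nuclei with a UMI depend on depth and on free RNA, so both were set against excitatory neurons. After thinning each nucleus to 1000 UMIs, Apoe was seen in 9.3% of wild type microglia (2.59% to 22.1%) and in 67.9%, 62.5%, 77.6% and 62% in the other 4. Without thinning those shares were 11.4%, 75.6%, 66.4%, 88% and 69.9%, at medians of 2038 to 2849 UMIs. Excitatory neurons, at medians of 13315 to 16614.5 UMIs, had an Apoe UMI in 10.5% to 16.7% of nuclei, and in 0.643% to 1.21% after thinning. Trem2 was seen in 54.2% to 69.4% of thinned microglia and in 0% to 0.109% of thinned excitatory neurons. Thinning left out 1 to 2 microglia and 2 to 17 excitatory neurons per library.

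Microglia fell into 2 clusters, g9 and g15, found with the 8 genes and the related lists left out of the clustering. All 44 wild type microglia lay in g9, while g15 held 52, 76, 34 and 52 nuclei of the other libraries and g9 held 30, 46, 16 and 41. In g15 Apoe stood at 10000, 4540, 11100 and 5550 CPM in 5xFAD and the libraries labelled as astrocyte, neuron and global MAGL-KO. In g9 it stood at 116 CPM in wild type and at 1040, 988, 632 and 534 CPM in the others. Within each of the 4 libraries g15 was above g9. Sums of both clusters rest on few nuclei. In g15, 2 nuclei held 291 of the 1457 Apoe UMIs in 5xFAD and 358 of 1155 in the library labelled as neuron MAGL-KO. In 5xFAD 19 of 30 g9 nuclei had no Apoe UMI and 2 held 41 of the 69, and the median g9 nucleus held 1 Apoe UMI in the library labelled as neuron MAGL-KO and 0 in each of the other 4. Among g9 nuclei with Y-linked UMIs, the libraries labelled as global MAGL-KO (257 CPM, 53 to 752) and neuron MAGL-KO (643 CPM, 133 to 1880, 1 nucleus) overlapped wild type (169 CPM, 67.8 to 347).

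Trem2 and Lpl also differed between the clusters. Trem2 stood at 1210, 1170, 1490 and 814 CPM in g15, and at 609 CPM (wild type) and 482, 744, 885 and 617 CPM in g9. Between wild type and 5xFAD, Trem2 in g9 was thus not higher in 5xFAD. Lpl stood at 206, 501, 345 and 303 CPM in g15, where 30 to 80 UMIs were seen, and had 0 or 1 UMI in g9 in every library. Apoe in nuclei with and without a Trem2 UMI stood at 8480 and 443 CPM in 5xFAD, and at 3450 and 2130, 8210 and 1930, and 3670 and 2330 CPM in the 3 MAGL-KO-labelled libraries. Nuclei without Trem2 were few (15, 24, 4 and 19) and shallower, with median depths of 2099, 1766.5, 2700 and 1825 UMIs against 2538, 2154, 2891.5 and 2240. In wild type the 2 levels were 27.9 and 316 CPM, on 2 and 10 UMIs.

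**Figure D3:**
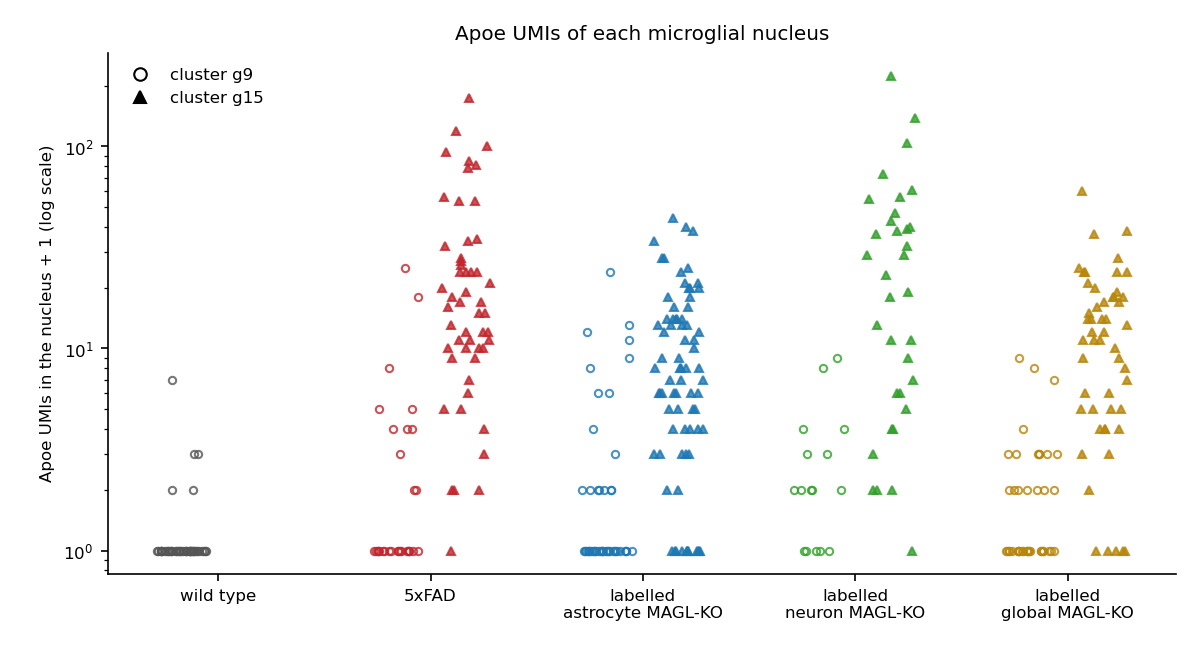
Apoe UMIs plus 1 of each microglial nucleus on a log axis, by library, with circles for cluster g9 and triangles for cluster g15; points are spread sideways only to be seen. All wild type nuclei are circles with at most 6 UMIs, and the nuclei above 100 UMIs lie in 5xFAD and in the library labelled as neuron MAGL-KO.

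The 3 MAGL-KO-labelled libraries were each set against the one 5xFAD library, so these comparisons share it and are not independent. Apoe in microglia was 0.447-fold (0.41 to 0.487) that of 5xFAD in the library labelled as astrocyte MAGL-KO and 0.477-fold (0.435 to 0.523) in that labelled as global MAGL-KO, both called lower. In that labelled as neuron MAGL-KO it was 1.08-fold (1.00 to 1.17). Lpl was 2.15-fold (1.41 to 3.37) in the library labelled as astrocyte MAGL-KO and 1.67-fold (1.01 to 2.78) in that labelled as neuron MAGL-KO, both called higher, and 1.2-fold (0.718 to 2.01) in that labelled as global MAGL-KO. Both Lpl calls were lost in nuclei with Y-linked UMIs, where the log2 ratios were 0.41 and -0.88 on few UMIs (7 in 5xFAD, 9 and 1 in the others). The second was also lost in nuclei with Xist (0.53) and with classes taken from the highest marker score (0.54). Over all microglia, the library labelled as astrocyte MAGL-KO thus had less Apoe and more Lpl than 5xFAD.

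Trem2 was not called against 5xFAD over all microglia, which include nuclei assigned to neither sex. It was 1.33-fold (1.09 to 1.62) in the library labelled as neuron MAGL-KO and 0.745-fold (0.599 to 0.925) in that labelled as global MAGL-KO. Taken by sex, Trem2 in the library labelled as neuron MAGL-KO passed the threshold, at 1.54-fold (1.19 to 2.00) with Xist and 1.56-fold (1.00 to 2.37) with Y-linked UMIs. In the one labelled as global MAGL-KO it was 0.929-fold (0.695 to 1.24) with Xist and 0.542-fold (0.328 to 0.867) with Y-linked UMIs. Over all microglia Tyrobp went the same ways, at 1.36-fold (1.02 to 1.80) and 0.745-fold (0.545 to 1.01). Of 6 genes tested per comparison, 1 was called higher and 1 lower in the library labelled as astrocyte MAGL-KO, where all genes gave 9.25% higher and 9.19% lower. In that labelled as neuron MAGL-KO 1 was higher and 0 lower, against 8.31% and 10.7% of all genes. In that labelled as global MAGL-KO 0 were higher and 1 lower, against 8.08% and 8.81%.

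The lower Apoe differed by the sex of the nuclei. The microglia with Xist numbered 21, 43, 75, 41 and 58, and those with Y-linked UMIs 15, 30, 31, 6 and 18, so the mix differed between libraries. Nuclei assigned to neither sex enter only the values over all microglia, among them the 5xFAD nucleus with 173 Apoe UMIs. In nuclei with Xist, Apoe stood at 102, 4790, 4380, 8030 and 3880 CPM. In nuclei with Y-linked UMIs it stood at 169, 8350, 1350, 8860 and 2700 CPM. The library labelled as astrocyte MAGL-KO was 0.914-fold 5xFAD (0.816 to 1.02) in the former and 0.161-fold (0.128 to 0.201) in the latter. That labelled as global MAGL-KO was 0.811-fold (0.716 to 0.917) and 0.324-fold (0.262 to 0.396). Both calls were thus lost in nuclei with Xist and kept in nuclei with Y-linked UMIs.

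The library labelled as neuron MAGL-KO was 1.68-fold 5xFAD (1.51 to 1.86) in nuclei with Xist and 1.06-fold (0.892 to 1.26) in the 6 nuclei with Y-linked UMIs. Of its 1006 Apoe UMIs in nuclei with Xist, single nuclei held 221 and 137. In 5xFAD the highest such nucleus held 118 of 556. The interval does not cover this spread between nuclei. The difference between 5xFAD and wild type was seen in both sexes, 47-fold (20 to 145) with Xist and 49.6-fold (23.9 to 124) with Y-linked UMIs. Within cluster g15, Apoe stood at 6320, 5220, 11100 and 6370 CPM with Xist and at 13100, 2180, 11400 and 3660 CPM with Y-linked UMIs. The difference between sexes was not tested, since each sex of a group came from 1 library and the number of mice behind it is not given.

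Chromatin at the Apoe start followed the RNA in part. A peak of 853 to 895 bases covered the start in all 5 libraries. In microglia it held 2, 28, 38, 25 and 24 transposase cut sites, or 5.22 (0.632 to 18.8), 36.4 (24.2 to 52.6), 44.6 (31.6 to 61.3), 49.2 (31.8 to 72.6) and 39 (25 to 58.1) CPM of the class's cut sites in peaks. The wild type interval lay below the other 4, and those 4 overlapped one another. In the libraries labelled as astrocyte and global MAGL-KO, whose Apoe RNA was lower, cut sites were not below those of 5xFAD (44.6 and 39 against 36.4 CPM). Peaks were listed in each library separately. In astrocytes the same peak stood at 79, 82.7, 76.9, 55.1 and 126 CPM, and in excitatory neurons at 2.11 to 2.8.

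At the Abca1 start microglia had 107 (76.7 to 145) CPM of cut sites in wild type and 70.2, 61.1, 82.6 and 84.6 in the others, so the order there was not that of Apoe. At the Trem2 start a peak was listed in 3 libraries, with 57.4 CPM in wild type, 58.7 in that labelled as astrocyte MAGL-KO and 104 (78.1 to 136) in that labelled as neuron MAGL-KO. Abca7 stood at 36.4 to 50.4 CPM. No peak was listed at the Tyrobp start in any library, and at the Lpl start the library labelled as astrocyte MAGL-KO had 9.39 CPM (4.06 to 18.5) and wild type 0.

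**Figure D4:**
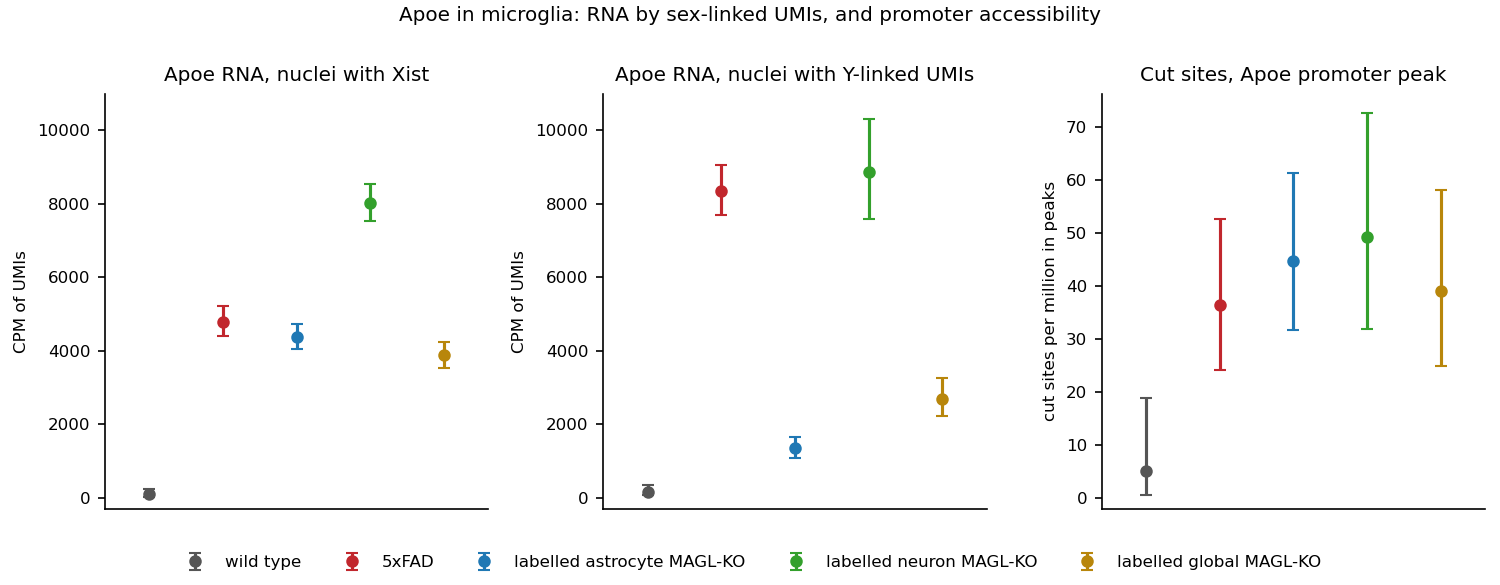
Apoe in microglia: RNA as CPM of UMIs in nuclei with Xist (left) and with Y-linked UMIs (middle), and CPM of cut sites in the promoter peak (right), 1 point per library with its 95% counting interval. The RNA of the library labelled as astrocyte MAGL-KO is close to 5xFAD on the left (4380 and 4790 CPM) and far below it in the middle (1350 and 8350 CPM), and the cut-site intervals of the 4 libraries carrying 5xFAD overlap.

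Apoe was not called in any comparison in astrocytes, oligodendrocytes, precursors or excitatory neurons, taken over all nuclei of each class. In astrocytes, its usual main source, it stood at 3100, 3780, 4100, 3940 and 3460 CPM. In astrocytes with Y-linked UMIs, 5xFAD (4260 CPM, 21 nuclei) was past 1.5-fold above wild type (2570 CPM, 20 nuclei; log2 ratio 0.73), and with Xist the levels were 3310 and 3220 CPM. Oligodendrocytes had 512, 730, 690, 701 and 649 CPM, with 5xFAD 1.43-fold wild type (1.26 to 1.61), short of a call. Precursors had 700, 745, 964, 911 and 598 CPM. Excitatory neurons had 7.93, 9.12, 9.08, 10.8 and 7.57 CPM. In excitatory neurons all 8 genes were tested in all 4 comparisons, and none was called. Few genes of any kind were: 0.0855% higher and 0.0399% lower between 5xFAD and wild type, and 0.376% to 1.84% higher and 0.101% to 0.195% lower in the other 3, so a count of 0 says nothing particular about these 8.

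Inhibitory neurons showed Apoe at 12.3, 21.3, 11.9, 16.1 and 11.3 CPM. There 5xFAD was 1.73-fold wild type (1.36 to 2.23), called higher, where 0.685% of all genes were. The libraries labelled as astrocyte and global MAGL-KO were 0.561-fold (0.442 to 0.706) and 0.534-fold (0.426 to 0.664) of 5xFAD, called lower, where 0.972% and 0.709% of all genes were. 5xFAD was thus the highest, and wild type lay with the libraries labelled as astrocyte and global MAGL-KO, unlike in microglia. Over all nuclei used, of every class, Apoe stood at 27.2, 49.6, 37, 53.3 and 23.8 CPM, above the inhibitory level in each library. The part of free RNA in the inhibitory differences was not tested. Between 14.4% and 19.5% of these inhibitory nuclei had UMIs of Xist and of Y-linked genes together, at median depths of 17252.5 to 23165 UMIs. Where such UMIs come from was not tested. Without those nuclei the log2 ratio of 5xFAD to wild type was 0.46 in place of 0.60, and that of the library labelled as global MAGL-KO to 5xFAD -0.50 in place of -0.68, both short of a call, while that of the library labelled as astrocyte MAGL-KO was -0.67. In nuclei with Xist the 3 ratios were 0.03, -0.33 and -0.47, none a call, and in nuclei with Y-linked UMIs they were 0.95, -0.50 and -0.66, the first and the last still calls. The ratio of the library labelled as astrocyte MAGL-KO was also short of a call under 5 other settings (-0.57 to -0.19), and that of 5xFAD to wild type under 2 (0.49 and 0.54).

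Clu, the second secreted carrier, stood in astrocytes at 1010, 1340, 1270, 1270 and 918 CPM. The 5xFAD level was 1.32-fold wild type (1.13 to 1.55) and that of the library labelled as global MAGL-KO 0.686-fold 5xFAD (0.547 to 0.855) on 111 UMIs, and neither was called. In astrocytes with Y-linked UMIs both passed the threshold, at 1560 CPM in 5xFAD against 881 CPM in wild type and 797 CPM in the library labelled as global MAGL-KO. The difference of that library from 5xFAD (log2 ratio -0.54 over all astrocytes) was past it under 6 of 14 alternatives (-0.97 to -0.63). In precursors Clu stood at 60.8, 82.8, 186, 81.2 and 81.7 CPM, so the library labelled as astrocyte MAGL-KO stood apart, 2.25-fold above 5xFAD (1.56 to 3.26). In that comparison 9.75% of all genes were called higher in precursors. The same library had the highest Clu in inhibitory neurons, where the levels were 25.4, 25.9, 47, 33.3 and 29.5 CPM and the ratio to 5xFAD 1.81 (1.57 to 2.10), against 3.96% of genes called higher. Its log2 ratio was 0.49 in place of 0.75 at the finer clustering and 0.58 with median-of-ratios scaling, both short of a call. The median over all genes in that comparison was 0.12. In excitatory neurons it was also the highest, at 18.4 CPM against 11.7 to 16.7 CPM in the rest.

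Abca1 in astrocytes stood at 222, 269, 144, 226 and 273 CPM, and the library labelled as astrocyte MAGL-KO, on 26 UMIs, was called lower than 5xFAD (0.535-fold, 0.325 to 0.859), where 11.7% of all genes were. The call was lost after thinning (log2 ratio -0.25 in place of -0.88), in nuclei with Xist (-0.38) and with classes taken from the highest marker score (-0.30). In oligodendrocytes Abca1 lay between 121 and 154 CPM in all libraries. Abcg1 lay between 124 and 150 CPM in oligodendrocytes and between 26 and 33.2 CPM in excitatory neurons, while astrocytes held 1 to 4 Abcg1 UMIs. In precursors Abcg1 stood at 100, 79.3, 65.4, 64.2 and 57.2 CPM, on 28 to 71 UMIs, and all 5 intervals overlapped. Abca7 had 38% to 46.6% of its UMIs in excitatory neurons. It stood at 6.25 to 7.89 CPM in excitatory and 10.1 to 12.7 CPM in inhibitory neurons.

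Outside microglia, Lpl was read in some excitatory neurons. It stood at 6.92, 5.76, 7, 7.39 and 6.4 CPM over all excitatory neurons, at 1.54 to 3.36 CPM in dentate granule clusters and at 7.82 to 10 CPM in the other excitatory clusters. Excitatory neurons held 39.5% to 52.3% of all Lpl UMIs of a library, microglia 0% to 9.65%, and nuclei left unnamed 37% to 49.5%. Cluster n3 (led by Stac, Galntl6 and Egfl6) had 19.2 CPM in wild type and 19.3 CPM in 5xFAD, and cluster n19 had 18.8 and 17.4 CPM, with intervals of the ratio that held 1 in both. In cluster n4 (led by Pde11a, Dcn and Fibcd1) Lpl was called lower in 5xFAD, at 4.54 against 9.51 CPM on 20 and 60 UMIs, where 1.27% of all genes were. Over the 12 excitatory clusters 56 pairs of gene and cluster were tested, and the other 2 calls were higher ones, of Apoe in n34 (14.9 against 7.29 CPM; 1.73% of all genes) and Abcg1 in n0 (37.2 against 22.4 CPM; 3.93%). Among rare classes, summed over libraries, 30 choroid plexus nuclei had 743 CPM of Apoe, 272 CPM of Clu and 124 CPM of Abca1.

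The genes most like each member were found by Pearson correlation of log2 levels over 30 sums (6 classes in 5 libraries) among 7590 genes. These sums share libraries and depths, so the values describe likeness only. Apoe was closest to Cd63 (r = 0.974), Hsd17b11 (0.946) and Abca1 (0.944). Trem2 was closest to Cd84, Cd300c2 and Tlr7 (each 0.993), and Tyrobp to Ctss (0.988), Cd68 (0.988) and Mpeg1 (0.987). Lpl was closest to Lilrb4a (0.964), Cybb (0.963) and Ccl4 (0.957). Clu was closest to the astrocyte genes Slc7a2 (0.978), Dio2 (0.978) and Pax6 (0.977). Abca1 was closest to Agmo (0.976), Lrmda (0.974) and Elf1 (0.969), Abcg1 to Dock10 (0.908), Cpeb2 (0.897) and Lrrc8d (0.895), and Abca7 to Ppfia1 at only 0.766.

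Genes around the 8 were described through 5 lists, and the counts in microglia are to be read against the 17.5% of all 2395 genes called higher and the 12.5% called lower. In microglia between 5xFAD and wild type, the list of Trem2 and Tyrobp signalling partners had 16 of 26 genes tested, 0 higher and 1 lower, with a median log2 ratio of -0.26. The lower one was Spi1, encoding PU.1, at 137 CPM against 213 CPM (0.643-fold, 0.357 to 1.17). Of LXR targets and sterol efflux, 5 of 25 were tested, with 1 higher and 1 lower: Npc2, which hands cholesterol out of the lysosome, at 278 against 87.1 CPM (3.2-fold, 1.58 to 7.34), and Abca9 at 368 against 600 CPM (0.614-fold, 0.434 to 0.871). Of fatty acid uptake, storage and lipid droplets, 3 of 25 were tested: Acaca, the first step of fatty acid synthesis, was higher at 656 against 174 CPM (3.77-fold, 2.3 to 6.54), as was Ppard (1.76-fold, 0.939 to 3.55), and Acsl4 was lower (0.441-fold, 0.255 to 0.759). Of lipoprotein particles and receptors 3 of 20 were tested and 0 called, and no sterol synthesis gene had enough UMIs. No Trem2 partner was thus called higher, and few lipid genes could be read in so few nuclei.

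Against 5xFAD, Acsl4, which activates arachidonic acid, was called higher in microglia of all 3 MAGL-KO-labelled libraries: 209, 263 and 260 CPM against 132 CPM (1.58-fold, 0.981 to 2.59; 1.99-fold, 1.2 to 3.35; and 1.97-fold, 1.22 to 3.24). In these comparisons 8.08% to 9.25% of all genes were called higher and 8.81% to 10.7% lower. The 3 ratios share the 5xFAD value, and wild type microglia had 300 CPM of Acsl4. Acaca was called lower in 2 of them, at 406 CPM in the library labelled as astrocyte MAGL-KO and 421 CPM in that labelled as global MAGL-KO against 656 CPM. Lrp1, a receptor for Apoe, stood at 595 against 368 CPM in the library labelled as astrocyte MAGL-KO (1.62-fold, 1.22 to 2.15), and Soat1, which esterifies cholesterol, at 86.6 against 160 CPM (0.54-fold, 0.301 to 0.951). Mylip, a ubiquitin ligase induced by LXR, stood at 501 against 307 CPM in that labelled as global MAGL-KO (1.63-fold, 1.18 to 2.27). In that labelled as neuron MAGL-KO Pik3cg stood at 316 against 175 CPM (1.81-fold, 1.15 to 2.86) and Plcg2, which signals below Trem2, at 244 against 382 CPM (0.637-fold, 0.42 to 0.951). The other calls were Npc1, Lrpap1 and Srebf2 (1.58-, 1.99- and 1.74-fold) and Abca3 (0.397-fold) in the library labelled as astrocyte MAGL-KO, and Lipa (1.56-fold) in the one labelled as neuron MAGL-KO. In the one labelled as global MAGL-KO they were Spi1 (1.54-fold), Abca3 (0.556-fold), Ppard (0.632-fold) and Scarb1 (0.615-fold).

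Excitatory neurons showed a difference in the list of sterol synthesis and SREBP control, the enzymes that make cholesterol and the factors that switch them on. All 25 genes were tested between 5xFAD and wild type; 6 were called higher and 0 lower, and 23 lay above a ratio of 1, with a median log2 ratio of 0.43 against -0.01 over all genes. Over all 17546 genes tested, 0.0855% were called higher (15 genes, 6 of them in this list) and 0.0399% lower. Msmo1 stood at 45.4 against 23.8 CPM (1.91-fold, 1.79 to 2.03), Hmgcs1 at 38.9 against 21 CPM (1.86-fold, 1.73 to 1.98) and Nsdhl at 19.3 against 9.29 CPM (2.08-fold, 1.88 to 2.3). Sqle (1.89-fold), Lss (1.88-fold) and Fdft1 (1.76-fold) were the others.

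Abca8a, a transporter of the efflux list, was lower in 5xFAD at 3.3 against 7.52 CPM (0.439-fold, 0.371 to 0.517). In the MAGL-KO-labelled libraries Hmgcs1 stood at 35.9, 27.2 and 33 CPM, between wild type and 5xFAD. Over all excitatory neurons, 0 of the 25 sterol genes were called against 5xFAD in any of the 3. Their median log2 ratios were 0.05, -0.13 and -0.07, each below the median over all genes (0.10, 0.09 and 0.02). In dentate granule clusters 2 were called higher than 5xFAD in the library labelled as astrocyte MAGL-KO (median 0.34; 2.49% of all genes) and 3 in the one labelled as global MAGL-KO (0.24; 1.14%). Over all genes the medians there were 0.12 and 0.03. In nuclei with Y-linked UMIs 4 were called lower in the one labelled as neuron MAGL-KO (-0.25; 0.267%), and in nuclei with Xist 0 were (0.02; 0.407%). The medians over all genes were 0.09 and 0.11. With Xist and with Y-linked UMIs the medians were 0.25 and -0.13 in the one labelled as astrocyte MAGL-KO. They were 0.05 and -0.14 in the one labelled as global MAGL-KO. Medians over all genes were 0.13 and 0.10 in the former library and 0.04 and 0.01 in the latter. Of the other lists, Gpnmb was called higher in the library labelled as astrocyte MAGL-KO (5.35 against 1.66 CPM) and Lrpap1 in the one labelled as neuron MAGL-KO (61.1 against 38.8 CPM). All genes gave 1.61% higher and 0.129% lower in the library labelled as astrocyte MAGL-KO, 1.84% and 0.195% in that labelled as neuron MAGL-KO, and 0.376% and 0.101% in that labelled as global MAGL-KO.

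Between 5xFAD and wild type the sterol genes differed by kind of neuron. In the dentate granule clusters (1646 wild type and 1414 5xFAD nuclei) 0 of 25 were called higher, with a median log2 ratio of 0.03, where 0.0821% of all genes were called. In the other excitatory clusters (1623 and 1840 nuclei) 8 were called higher, with a median of 0.52, where 0.134% were. In nuclei with Xist the median was 0.45 and in nuclei with Y-linked UMIs 0.37, each with 6 genes higher (0.277% and 0.109% of all genes). The dentate clusters of the libraries labelled as astrocyte and global MAGL-KO had 4 genes higher than wild type each (medians 0.44 and 0.30; 2.05% and 1.04% of all genes), and those of the third 0 (0.21; 2.2%). Over all genes the medians were 0.11, 0.02 and 0.09, in the order just given. Between 5xFAD and wild type the highest medians were in cluster n4, with 19 of 24 tested genes higher and a median of 1.15 (0.71% of all genes), and n3, with 18 of 25 and 0.93 (0.388%). Cluster n15 (led by Fn1, Klhl1 and Adamts2) had 16 of 25 and 0.72 (0.583%). In n3 Hmgcs1 stood at 19.8, 68.8, 60.8, 43.9 and 54.9 CPM, and in n4 at 20.9, 77.3, 73.2, 57.9 and 58.2 CPM. Sqle stood at 9.72, 31, 38.7, 38.5 and 32.4 CPM in n3 and at 14.1, 43.2, 58.7, 46.5 and 38.2 CPM in n4. Not every sterol gene thus lay below 5xFAD in the MAGL-KO-labelled libraries. Medians ranged from -0.16 to 1.15 over the 9 clusters outside the dentate gyrus, 8 of them above 0, and from -0.03 to 0.05 over the 3 dentate clusters.

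Thy1, whose promoter drives the 5xFAD transgenes, was higher in 5xFAD in each of these clusters. Its log2 ratio of 5xFAD to wild type was 2.65 in n3, 2.48 in n4 and 2.61 in n15. It was 1.12 in n34 (sterol median 0.59), 1.55 in n11 (0.05), 1.36 in n18 (-0.16), 1.34 in n0 (0.27) and 1.22 in n22 (0.25). In the 3 dentate clusters it was 1.81, 1.93 and 1.72 (0.03, -0.03 and 0.05), and the lowest was 0.79 in n19 (0.27). The source of these Thy1 UMIs was not tested. The part of transgene level in the sterol difference was not tested.

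**Figure D5:**
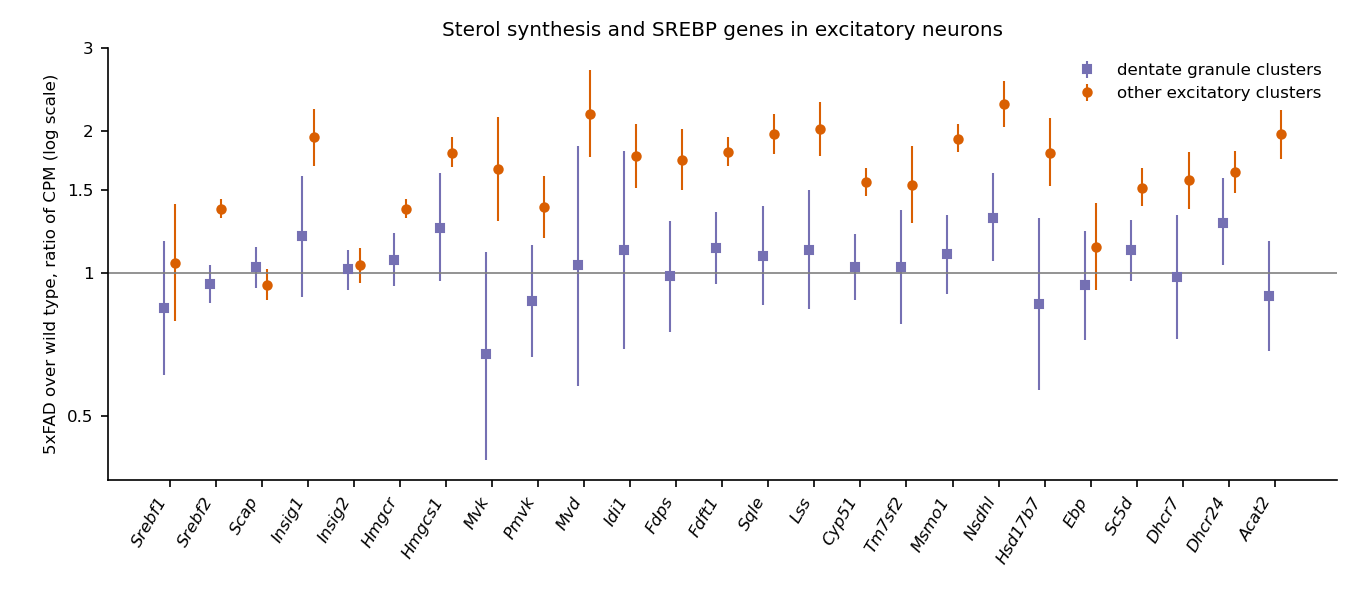
Ratio of CPM of 5xFAD to wild type for the 25 sterol synthesis and SREBP genes, on a log axis, with 95% counting intervals; squares are the dentate granule clusters and circles the other excitatory clusters, and the line marks equal levels. The circles lie above the squares for most genes. The medians in the text, 0.52 and 0.03, are of log2 ratios with 5 CPM added, whereas the plotted ratios have none added.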

How the data were processed

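The authors deposited, for each library, raw counts of UMIs per gene and of transposase cut sites per peak in each nucleus, with the position of every gene and peak. Per the submitters' processing notes the tools were Cell Ranger ARC 2.0.0 and Seurat (version not given) and the build mm10; the steps that led to the deposited barcodes are not given in the sources used here. Peaks were listed separately in each library.

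Kept nuclei had at least 500 genes, with mitochondrial UMIs at 5% or less. The automatic threshold of Scrublet marked 0 to 2 nuclei in 4 libraries and 2305 in the fifth, so the highest scores were removed at 0.8% per 1000 nuclei. Nuclei were clustered with scanpy 1.11.5 and leidenalg 0.10.2 (Python 3.11.15, numpy 2.4.6, scipy 1.17.1, pandas 2.3.3, figures with matplotlib 3.10.9) at resolution 1, with the 8 genes and the 5 lists left out of the variable genes. Clusters were named from marker lists and need at least 3 markers, so class names mean clusters like that type. A cluster also stayed unnamed if many of its nuclei held Xist and Y-linked UMIs together. The same held if a second class scored close to the first or other markers led. Of the unnamed nuclei of a library, 25.9% to 43% held UMIs of both sexes, at median depths of 25544.5 to 34304.5 UMIs.

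UMIs were summed per class and library; log2 ratios use a pseudocount of 5 CPM. Sums have exact Poisson intervals, ratios exact conditional binomial intervals and shares Clopper-Pearson intervals. Libraries held 101931020 to 159532813 UMIs, and microglia 103381 to 253943. The procedure was tested on simulated data. Promoter cut sites are those of peaks that overlap 250 bases before to 50 after the start. Positions are from GENCODE vM21 on GRCm38.

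Named genes were all 8 members in every class; for each list, class and comparison described, up to 2 genes with the highest and up to 2 with the lowest ratio among those called; and for each member the 3 genes with the highest correlation among those with at least 50 CPM in a sum. Further sterol genes, and members in single clusters, were named after their values were seen. The members, the lists and the questions were chosen with earlier results of these data known, and the splits of the sterol list by neuron cluster and sex were chosen after seeing the data. Alternatives changed the pseudocount, filters, doublet removal, clustering, scaling, depth, sex of nuclei, fold and promoter window. Some results of the lists are not reported here.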

Additional observations from a re-analysis of the deposited data

How the results depend on the processing

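No alternatives were run for oligodendrocyte precursors. With 1 library per group no replicate could be left out. No paired analysis between groups was possible because the 5 groups have a single library apiece. Of 1426 recomputed log2 ratios of members, 1240 stayed within their counting interval and 185 moved further. Of the ratios past the threshold 1 changed sign: Lpl in microglia of the library labelled neuron MAGL-KO against 5xFAD, at -0.88 in nuclei with Y-linked UMIs (1 against 7 UMIs) and 0.72 in all. Smaller ratios also changed sign, such as that of Trem2 in the library labelled astrocyte MAGL-KO to 5xFAD, which ranged from -0.40 to 0.42. The Apoe log2 ratio of 5xFAD to wild type ranged from 5.49 to 6.89 over 14 alternatives. Against 5xFAD it ranged from -2.63 to -0.13 in the library labelled astrocyte MAGL-KO, from 0.07 to 0.74 in the neuron one and from -1.63 to -0.30 in the global one. Trem2 ranged from 0.37 to 0.93, short of a call in nuclei with Xist, after thinning (0.54), with the 8 genes and the lists kept in the clustering (0.54), at resolution 2 (0.56) and as the mean over nuclei (0.57), and Tyrobp from 0.91 to 1.58 between 5xFAD and wild type.

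Counts of called members in microglia moved as follows. Between 5xFAD and wild type, 4 higher became 2 after thinning to 1000 UMIs and 2 in nuclei with Xist. In the library labelled astrocyte MAGL-KO, 1 higher became 2 after thinning and 0 in nuclei with Y-linked UMIs, and 1 lower became 0 where Xist was seen and 2 where Y-linked UMIs were. In that labelled neuron MAGL-KO, 1 higher became 3 with each nucleus assigned to its highest marker score, 4 without removal of doublets, 2 in nuclei with Xist, 0 with at least 100 UMIs and 0 at a fold of 2. In that labelled global MAGL-KO, 0 higher became 1 with the mean over nuclei, and 1 lower became 0 where Xist was seen and 4 where Y-linked UMIs were. The cause was not tested. The share of all genes called at these settings is not given here, so these counts cannot be set against a background. The 6 sterol genes called higher in excitatory neurons became 0 in the dentate granule clusters, and the list's median ranged from 0.34 to 0.58 over 14 alternatives. The microglial results are limited by 44 to 122 nuclei: the floor of 3 counts was 29 CPM in wild type.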
